A study of Mus musculus with 6 samples.

Results

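Known marker genes of subplate neurons, 9 in all, were followed in the primary somatosensory cortex (S1) of mice at postnatal day 7. They are Ctgf (now named Ccn2), Cplx3, Nxph4, Nr4a2, Moxd1, Tmem163, Inpp4b, Svil and Hs3st4. The members were found by name: every probe on the arrays that was not a control spot and carried 1 of these gene names was taken. This gave 15 probes of 9 genes, out of 55681 probes of 35514 genes. Ctgf, Cplx3 and Moxd1 had 1 probe each and the other 6 genes had 2.

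Total RNA of dissected S1 from C57BL/6 mice was hybridised to 1-colour arrays, 1 array per sample. The control group had 3 samples carrying floxed Lhx2 alleles (Lhx2f/f). The cKO group had 3 samples with the same floxed alleles and Nex-Cre (Lhx2f/f;Nex-Cre), a Cre recombinase driven from the Neurod6 (Nex) locus in young excitatory neurons of the cortex. Both groups carried the floxed alleles, and Cre was present in the cKO group alone, so the presence of Cre and the loss of Lhx2 cannot be told apart. Lhx2 encodes a LIM-homeodomain transcription factor. Nothing in the labels says that the samples of a group were separate animals, so each p-value covers the spread between these 6 samples and no more. The small number of arrays, 3 per group, limits the precision of every value.

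Subplate neurons are among the earliest-born neurons of the cortex and lie beneath the cortical plate. Axons from the thalamus wait among them and make early contacts with them before entering the cortex, and removal of the subplate disturbs how thalamic axons innervate and pattern the sensory cortex. Many subplate neurons are lost after birth in rodents, and those that remain form layer 6b, a thin band next to the white matter. The markers label overlapping but different subsets of these cells, and some of them are also made elsewhere: Ctgf in blood vessel walls and meninges, and Nr4a2 in the claustrum, the neighbouring cell group under the insular cortex.

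The probes behind the main results are shown here, so that what each value measured can be seen. Each probe has 60 bases, of which the first 30 are printed in lower case, 5′ to 3′, as the scanner files give them, and no part is set apart by capitals. Positions are those of the scanner files on the mm9 build. Exon and UTR annotation of that build was not used here. The Ctgf and Cplx3 probes are shown because the groups did not overlap there, and the Nr4a2 and Moxd1 probes because 1 array stood apart. The Tmem163 and Inpp4b pairs are shown as examples of probes of 1 gene that disagreed. The probes of Svil and of Nxph4 also differed in sign and are not printed. The Ctgf probe lies at chr10:24318281-24318340 on the + strand and the Cplx3 probe at chr9:57449640-57449699 on the - strand. The brighter Nr4a2 probe lies at chr2:56960699-56960758 and the dimmer one at chr2:56959637-56959696, both on the - strand. The Moxd1 probe is placed at chr10:24022208-24022266 on the + strand, an interval slightly shorter than its 60 bases. The brighter Tmem163 probe lies at chr1:129386923-129386982 and the dimmer one at chr1:129387071-129387130, both on the - strand. The brighter Inpp4b probe lies at chr8:84646383-84646442 and the dimmer one at chr8:84565823-84565882, both on the + strand.
Ctgf: gtcaaatccctgttggtgaacaaatggcct
Cplx3: gacacagaagccctggctcatttgccacag
Nr4a2, brighter probe: aaagaccatgtgactttcaataatgggggt
Nr4a2, dimmer probe: aagggacacatagtgtttgtaacaccgccc
Moxd1: cactcagtgctaccctctgggtcgatctga
Tmem163, brighter probe: atcaggtcttcctttttgtacagcaagtgt
Tmem163, dimmer probe: atttatttatgaatgaaacagtccctcacc
Inpp4b, brighter probe: gtagagttgaatctttgttatttttacttg
Inpp4b, dimmer probe: cggcatttcagatttgaggaaagttgcatt

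All 15 probes were well above background on 6 of 6 arrays, and none of their spots was marked as an outlier. A level below is the log2 processed signal minus the array's 75th percentile, so that 0 is the signal that 75% of the probes on that array did not exceed. Levels were compared between arrays for 1 probe at a time and never between probes. A gene was read from its brighter probe unless the other is named. Differences are the cKO mean minus the control mean on the log2 scale, with the SE and adjusted p of limma's moderated test across all 32697 tested genes.

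Some facts of the 6 arrays bear on these values. No spot was saturated, and 86.7% to 91.1% of the spots of an array stood well above background. The targeted gene went against the label: Lhx2 stood at 3.62, 3.63 and 3.55 on the control arrays and at 4.55, 4.68 and 4.89 on those labelled cKO, 2.15-fold higher (SE 0.111 on the log2 scale, adjusted p = 0.067 in limma). The sources used here do not say whether the Lhx2 probe lies in the deleted part, so this probe does not show whether the allele was recombined. Neurod6, from whose locus Cre is driven, was also higher without overlap on the arrays labelled cKO (0.37, adjusted p = 0.52 in limma). Of all genes, 6.98% were higher without overlap. The effect of Nex-Cre on the Neurod6 signal was not tested. Directions below are therefore those of the labels. The 6 arrays came from a single slide: the 3 control arrays and cKO replicate 1 lay in 1 row of it, and cKO replicates 2 and 3 in the other row. The rows were inferred from position numbers in the barcodes of the scanner files, which do not name them as rows. Y-linked genes were well above background on control replicates 1 and 3 and not on the other 4 arrays.

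Of the 9 members, 7 were lower on average on the arrays labelled cKO, and 0 passed the adjusted threshold of 0.05 in limma. Over all tested genes, 0.00918% passed that threshold, 3 genes, all of them higher in the cKO. At an unadjusted p under 0.05, 2 members were lower and 0 higher, against 4.37% of all genes lower and 3.12% higher. The median difference of the members was -0.17, beside 0.02 for all genes tested, of which 44.3% were below 0. Ctgf and Cplx3 were the 2 members whose groups did not overlap, both lower in the cKO; 6.19% of all genes did the same, and 6.98% were higher without overlap. In bulk tissue, fewer cells of a type and less RNA per cell cannot be told apart.

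**Figure D1:**
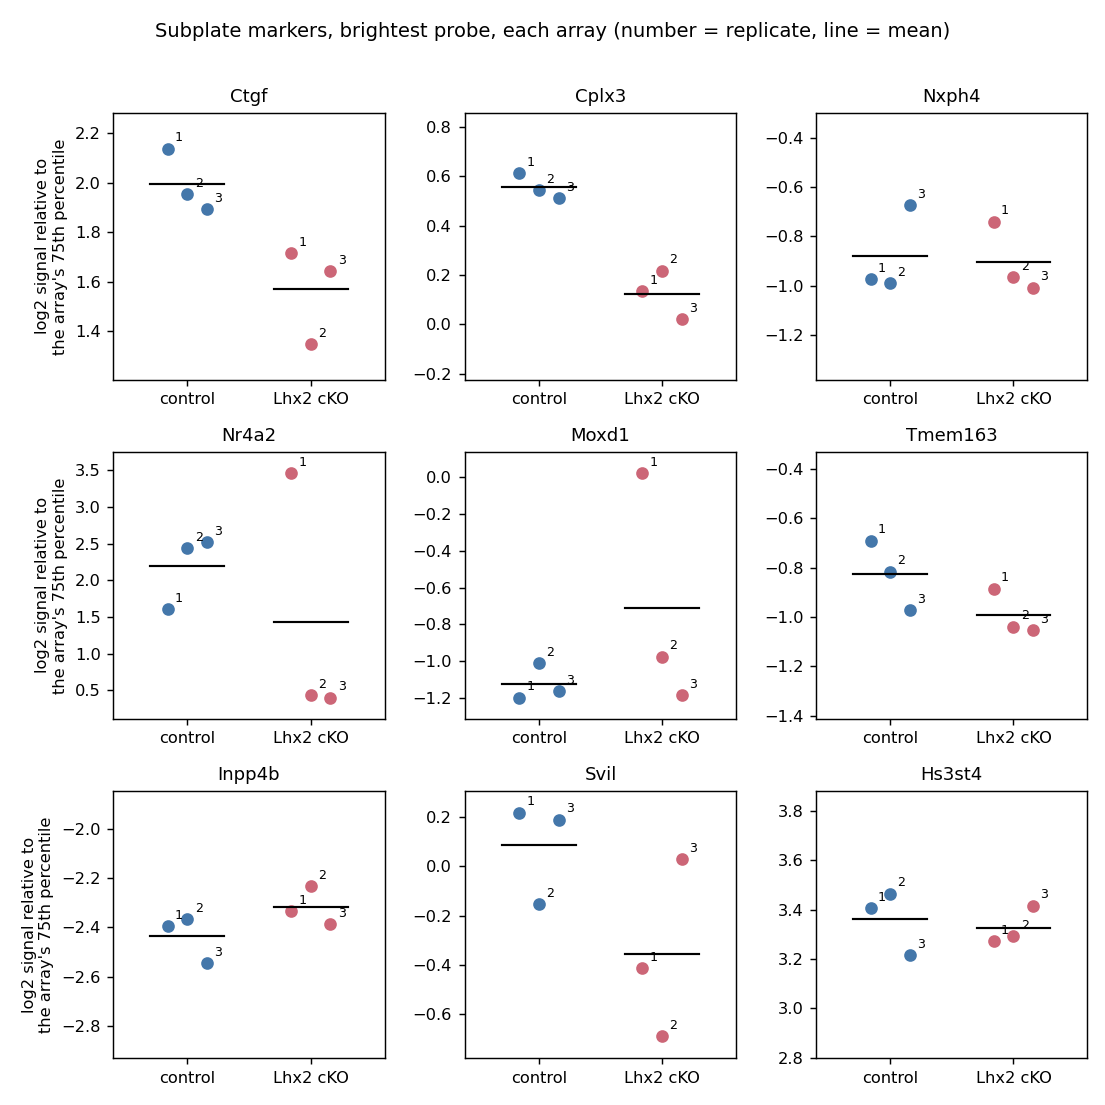
Level of each of the 9 subplate markers on each array, as the log2 signal of its brighter probe minus the array's 75th percentile; numbers are replicates, lines are group means of 3 arrays, and each panel has its own vertical scale. Ctgf and Cplx3 are lower on all 3 cKO arrays than on any control array, while cKO replicate 1 stands apart for Nr4a2 and Moxd1.

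The secreted factors came first in the comparison. Ctgf encodes connective tissue growth factor, a secreted matrix protein of the CCN family that is abundant in subplate cells. Its level was 2.14, 1.96 and 1.89 on control replicates 1, 2 and 3 and 1.72, 1.35 and 1.64 on cKO replicates 1, 2 and 3. Every cKO array lay below every control array. The difference was -0.43 (SE 0.13, 95% interval -0.74 to -0.12), 1.34-fold lower, with an unadjusted p = 0.014 and an adjusted p = 0.45 in limma. Within the row of the slide that held both groups, cKO replicate 1 was 0.82 times the control mean, a log2 difference of -0.28.

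Nxph4 encodes neurexophilin 4, a secreted glycoprotein of a family that binds neurexins at synapses. Its level was -0.97, -0.99 and -0.67 on the control arrays and -0.74, -0.96 and -1.01 on the cKO arrays, and the groups overlapped. The difference was -0.03, with a 95% interval of -0.33 to 0.28 and an adjusted p = 1 in limma. The dimmer probe, 937 bases away, gave 0.01, so neither probe gave a difference beyond the spread between arrays.

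Among the members with a role at synapses and vesicles, Cplx3 had the smallest p of all 9. Cplx3 encodes complexin 3, which binds the SNARE complex and controls vesicle release. Its level was 0.61, 0.54 and 0.51 on control replicates 1, 2 and 3 and 0.13, 0.22 and 0.02 on cKO replicates 1, 2 and 3. In intensity units before scaling this was 1474, 1421 and 1171 on the control arrays and 1000, 969 and 964 on the cKO arrays. The groups did not overlap on either scale, and on the log2 scale the gap between them was wider than the range within either. The difference was -0.43 (SE 0.0936, 95% interval -0.65 to -0.21), 1.35-fold lower, with an unadjusted p = 0.0027 and an adjusted p = 0.28 in limma.

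Cplx3 moved least of the 9 members between ways of processing, relative to its size: over 21 alternatives its difference stayed between -0.48 and -0.38, with adjusted p between 0.043 and 1. The call below the threshold came with array weights alone, where the difference was -0.48 and 1.39% of all genes were called, 453 in place of 3. Its value within the row of the slide that held both groups was -0.42. With a term for Y-linked signal, Cplx3 differed by -0.42 and Ctgf by -0.38, each with an adjusted p = 1 in limma. Tmem163 encodes a zinc-binding transmembrane protein of synaptic vesicles. Its level was -0.69, -0.82 and -0.97 on the control arrays and -0.89, -1.04 and -1.05 on the cKO arrays. cKO replicate 1 lay inside the control range, and the other cKO arrays below it. The difference was -0.17 (SE 0.11), with an adjusted p = 0.89 in limma, whereas the dimmer probe, 148 bases away, gave 0.06, and the r between the 2 probes over the 6 arrays was -0.30.

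Nr4a2, or Nurr1, encodes an orphan nuclear receptor and is the transcription factor among the members. It varied more between the arrays than any other member. The brighter probe stood at 1.61, 2.44 and 2.52 on control replicates 1, 2 and 3 and at 3.46, 0.43 and 0.40 on cKO replicates 1, 2 and 3. The highest and the lowest levels of the 6 arrays were thus both in the cKO group, with the 3 control arrays between them. The dimmer probe, 1062 bases away, gave the same order of cKO replicate 1, control and the other cKO arrays: -0.33, 0.33 and 0.53 on the control arrays and 1.40, -1.42 and -1.33 on the cKO arrays. The r between the 2 probes was 0.998 over the 6 arrays, which share RNA and labelling, so the spread was not that of 1 probe.

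In intensity units, the brighter Nr4a2 probe read 2950, 5276 and 4714 on the control arrays and 10030, 1123 and 1253 on the cKO arrays. The level on cKO replicate 1 was 2.41-fold above the control mean and 8.26-fold above the mean of the other cKO arrays. Those 2 arrays lay 3.42-fold below the control mean. Only 0.171% of the tested genes had a wider range over the 6 arrays than the 3.06 of Nr4a2, and the median range was 0.44. The group difference was -0.76 (SE 0.81, 95% interval -2.69 to 1.17), with an adjusted p = 0.98 in limma. Without cKO replicate 1 it was -1.77, with an adjusted p = 0.22, and without cKO replicate 2 or 3 it was -0.26 or -0.24. With array weights it was -1.44. With a term for the row of the slide it was 1.27, which is cKO replicate 1 against the control mean. The other row held cKO arrays alone and so added nothing to that value.

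Moxd1 encodes an enzyme-like protein of the endoplasmic reticulum related to dopamine beta-hydroxylase. Its level was -1.20, -1.01 and -1.16 on the control arrays and 0.02, -0.97 and -1.18 on the cKO arrays. As for Nr4a2, cKO replicate 1 was the highest of the 6 arrays, here 2.21-fold above the control mean, and the other cKO arrays lay within or just above the control range. The difference was 0.41 (SE 0.3), with an adjusted p = 0.92 in limma, and without cKO replicate 1 it was 0.04. The difference of Moxd1 therefore rested on that array.

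Oprk1, the kappa opioid receptor gene, is a marker of the claustrum and deep cortex from the claustrum list, and it was singled out after its values were seen. Its level was -3.83, -2.94 and -3.50 on the control arrays and -1.42, -4.43 and -4.41 on the cKO arrays, well above background on all 6. Like Nr4a2, it was highest on cKO replicate 1, 4.02-fold above the control mean, and lowest on cKO replicates 2 and 3. The other claustrum markers did not share this spread: on cKO replicate 1, Gnb4 was 1.39-fold above the control mean, while Lxn and Ntng2 were at 0.886 and 0.875 times it. Genes of other lists also stood highest on cKO replicate 1. Trh, from the other subplate genes, was at 0.76, 0.80 and 0.93 on control and 1.195, 0.443 and 0.291 on cKO arrays. Penk, from the striatal markers, was at 0.35, 0.29 and 1.02 on control and 1.27, -0.26 and -0.06 on cKO arrays. Sulf1, a layer 6 gene, was at 0.16 on cKO replicate 1, above every control array. They too were picked with their values known, and not all genes of their lists did so. The part of claustral or other neighbouring tissue in the Nr4a2 values was not tested.

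**Figure D2:**
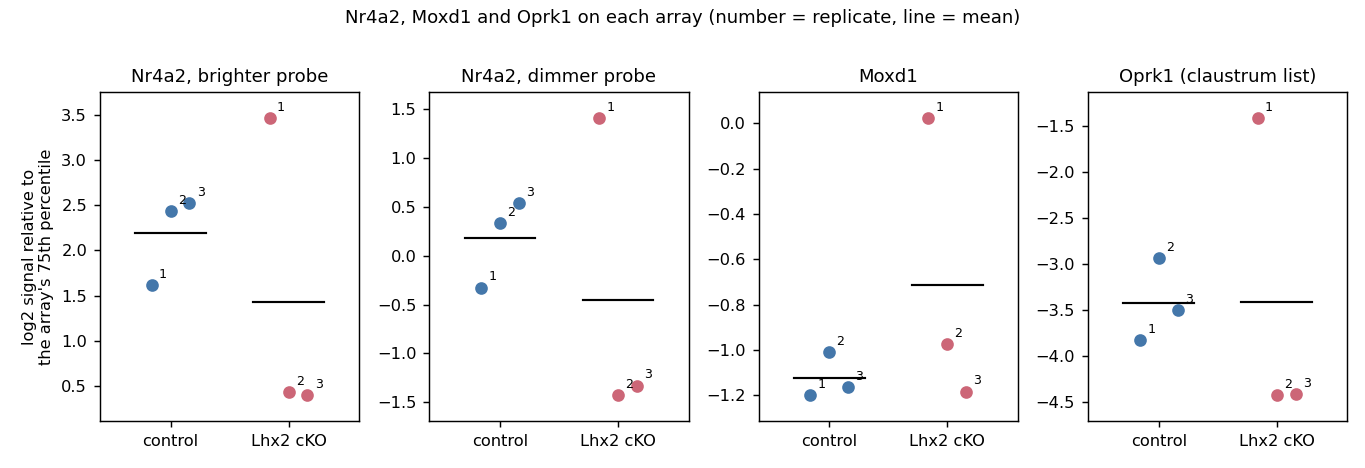
Level of both Nr4a2 probes, the Moxd1 probe and the Oprk1 probe on each array, as log2 signal minus the array's 75th percentile; numbers are replicates, lines are group means of 3 arrays, and each panel has its own vertical scale. cKO replicate 1 is the highest array in all 4 panels, and cKO replicates 2 and 3 are the lowest for Nr4a2 and Oprk1.

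The remaining members act inside the cell or on its surface sugars. Svil encodes supervillin, an actin- and myosin-binding protein of the villin and gelsolin family. Its level was 0.22, -0.15 and 0.19 on the control arrays and -0.41, -0.69 and 0.03 on the cKO arrays. cKO replicate 3 lay inside the control range and the other cKO arrays below it. The difference was -0.44 (SE 0.2), 1.36-fold lower, as large as that of Cplx3 but with a wider spread and an adjusted p = 0.71 in limma. Its size changed with the arrays and the processing: without cKO replicate 2 the difference was -0.28, with array weights -0.13, and with a term for Y-linked signal -0.23. The dimmer probe, 69.6 kb away in the genome, gave 0.05, the r between the probes was 0.172, and the mean of both probes gave -0.20.

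Inpp4b encodes an inositol polyphosphate 4-phosphatase that acts on a lipid product of PI3-kinase signalling. The brighter probe stood at -2.40, -2.37 and -2.54 on the control arrays and at -2.33, -2.23 and -2.39 on the cKO arrays, a difference of 0.12 with an adjusted p = 0.95 in limma. The dimmer probe, 80.6 kb away in the genome, stood at -2.92, -2.78 and -3.07 on the control arrays and at -3.10, -3.17 and -3.18 on the cKO arrays. For this dimmer probe every cKO array lay below every control array, with a difference of -0.23 and an adjusted p = 0.8 over all probes in limma. The probes of Inpp4b thus differed in sign, and the gene has no settled direction.

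Hs3st4 encodes a heparan sulfate 3-O-sulfotransferase, which adds a rare sulfate to the heparan chains of the cell surface. Its level was 3.41, 3.47 and 3.22 on the control arrays and 3.27, 3.29 and 3.42 on the cKO arrays, the tightest of the 9 members, with a range of 0.25 over the 6 arrays. The difference was -0.03, with a 95% interval of -0.28 to 0.21 and an adjusted p = 1 in limma. The dimmer probe gave -0.08.

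**Figure D3:**
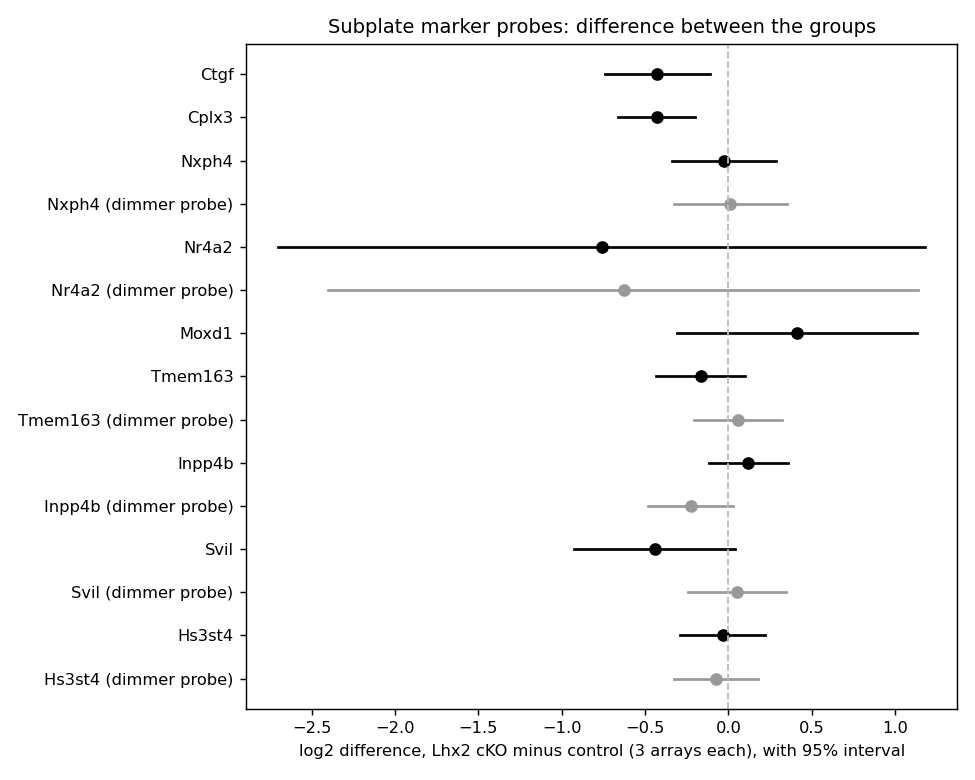
Log2 difference between the 3 cKO and the 3 control arrays for each of the 15 probes, with the 95% interval of limma's fit over all probes; black marks the brighter probe of a gene and grey the dimmer one. The intervals of Ctgf and Cplx3 lie below 0, those of Nr4a2 are the widest, and the probes of Nxph4, Tmem163, Inpp4b and Svil lie on both sides of 0.

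By probe, 10 of the 15 were lower on average, against 44.6% of all probes. Of the 15, 0 passed the adjusted threshold, against 0.002% of all probes, and 3 did not overlap between the groups, all lower, against 5.89% of all probes lower and 6.66% higher in this way. Leaving out 1 array at a time, an alternative added after seeing the data, could only add members to Ctgf and Cplx3, whose groups were apart over all 6 arrays. Without control replicate 2, 3 members were lower without overlap (Ctgf, Cplx3 and Svil) and 1 higher (Inpp4b), against 9.27% and 9.72% of all genes. Without cKO replicate 1, 4 members did not overlap, all lower in the cKO: Ctgf, Cplx3, Nr4a2 and Tmem163, against 11% of all genes lower in that subset. Without cKO replicate 3, 3 were lower (Ctgf, Cplx3 and Svil) and 2 higher (Moxd1 and Inpp4b), against 9.5% and 12% of all genes.

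The members did not vary together as 1 group. Of the 36 pairs of members, 6 had an r above 0.5 over the 6 arrays and 5 an r below -0.5, with a median of 0.123. All pairs share the same arrays and the group difference. Ctgf and Tmem163 were the most alike, with an r of 0.836, followed by Ctgf and Svil with 0.799 and Ctgf and Cplx3 with 0.771. Inpp4b and Svil were the most opposed, with an r of -0.855. As a median over the 9 genes relative to the control mean, the level was 0.04, 0.01 and -0.04 on the control arrays and -0.06, -0.21 and -0.13 on the cKO arrays. On cKO replicate 1 this median stood for members on both sides, 3 above every control array and 3 below every control array.

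The 5 genes most like the mean of the standardized members over the 6 arrays, among 6716 named genes with enough spread, were Myorg (r = 0.988), Pm20d1 (0.982), Sptb (0.981), Aifm3 (0.980) and Xlr (0.978). All 5 were lower on average in the cKO, by differences from -0.27 for Aifm3 to -0.98 for Xlr. The mean of the members was itself lower on average there, so this direction followed from the choice and is no separate result. An r this high, picked from 6716 genes over 6 arrays, does not show a link to the members.

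**Figure D4:**
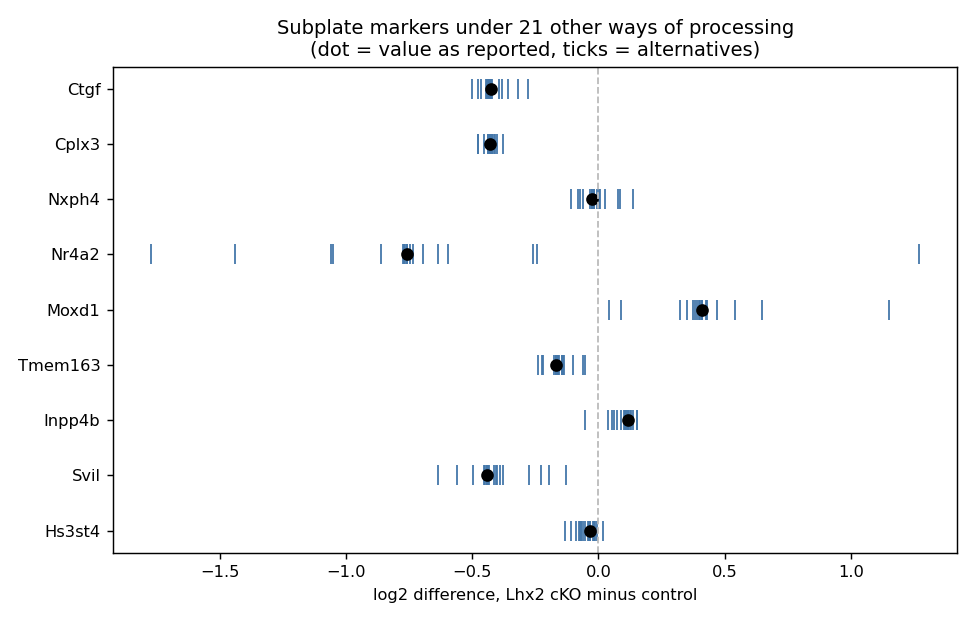
Log2 difference, cKO minus control, of each subplate marker as reported (dot) and under 21 alternative ways of processing or leaving out an array (ticks). Cplx3 and Ctgf stay below 0 throughout, Nr4a2 ranges from -1.77 to 1.27, and Nxph4, Inpp4b and Hs3st4 cross 0.

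Of 11 other genes known from subplate or layer 6b neurons, 6 were lower and 5 higher on average, with a median of -0.19 and 0 past the adjusted threshold in limma. Drd1, the D1 dopamine receptor gene, was lower without overlap, at -0.17, -0.25 and -0.17 on the control arrays and -0.67, -0.51 and -0.75 on the cKO arrays (difference -0.44, adjusted p = 0.29). Ngfr, the p75 neurotrophin receptor gene, was also lower without overlap (-0.33, adjusted p = 0.48). Cdh10, a cadherin gene, was higher without overlap, at 0.30, 0.25 and 0.00 on the control arrays and 0.76, 0.78 and 0.63 on the cKO arrays (difference 0.54, adjusted p = 0.26). The markers of the subplate thus differed in direction among themselves.

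The layer just above, of corticothalamic neurons, gave differences mostly of the other sign. Of 13 layer 6 genes, 9 were higher and 4 lower on average, with a median of 0.26 and 0 past the adjusted threshold in limma. Their mean level overlapped between the groups, at 4.28 to 4.44 on the control arrays and 4.41 to 4.47 on the cKO arrays. A mean level is the log2 of the mean unlogged signal, so the brightest gene, here Sox5 (difference -0.03), weighs most in it. The median over the genes relative to the control mean was 0.001, -0.005 and -0.0125 on the control arrays. On the cKO arrays it was 0.32, 0.007 and 0.13. Rprm, a cell cycle regulator used as a layer 6 marker, stood at 4.06, 3.82 and 4.01 on the control arrays and at 4.78, 4.92 and 4.67 on the cKO arrays (difference 0.83, adjusted p = 0.097). Sla, an adaptor protein gene, was higher by 0.58 (adjusted p = 0.24), and Fezf2, a transcription factor gene of deep-layer projection neurons, by 0.45 (adjusted p = 0.39). These 3 genes, those with the smallest p of the list, did not overlap between the groups. Of the 13 genes, 5 were higher without overlap and 1 lower, against 6.98% and 6.19% of all genes. The lower gene was Nfia (-0.36, adjusted p = 0.39 in limma). Whether the members differ from the layer 6 genes as a list was not tested.

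The family relatives of the members gave no called gene either. Of 26 relatives, 24 were tested, 16 were lower and 8 higher on average, with a median of -0.04. In the CCN family, Cyr61 was lower without overlap, as was Ctgf, at -1.84, -1.86 and -1.83 on the control arrays and -2.31, -2.30 and -2.10 on the cKO arrays (difference -0.39, adjusted p = 0.32 in limma). Both are known targets of the YAP and TEAD regulators, and of 6 genes of that list 4 were lower and 2 higher, with a median of -0.24. Among the complexins, Cplx1, Cplx2 and Cplx4 differed by -0.22, -0.10 and 0.00, with overlapping groups and adjusted p of at least 0.95 in limma, where Cplx3 differed by -0.43. Of 8 genes of the release machinery and neurexins, 2 were lower and 6 higher, with a median of 0.03.

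Among the neurexophilins, Nxph2 was higher without overlap (0.46, adjusted p = 0.49 in limma), and Nxph1 and Nxph3 differed by 0.16 and 0.23 with overlapping groups. The relatives of Nr4a2 did not share its spread: on cKO replicates 1, 2 and 3, Nr4a1 stood at 2.36, 2.49 and 2.33 and Nr4a3 at -4.12, -4.23 and -4.08. Of 11 immediate early genes, which neuronal activity induces, 5 were lower and 6 higher, with a median of 0.02. By array, their median relative to the control mean was highest on cKO replicate 1, at 0.171. It was 0.0439 and -0.0206 on cKO replicates 2 and 3, and -0.0345, 0.0565 and 0.0041 on the control arrays. The part of neuronal activity in the Nr4a2 values was not tested. Dbh, the relative of Moxd1, was lower without overlap (-0.67, adjusted p = 0.32). In the villin and gelsolin family, Gsn was lower without overlap, at 2.44, 2.43 and 2.21 on the control arrays and 1.31, 1.80 and 1.66 on the cKO arrays (difference -0.77, adjusted p = 0.23). Vil1 was also lower without overlap (-0.59, adjusted p = 0.38), Flii was higher without overlap (0.18, adjusted p = 0.76), and Scin and Vill overlapped. Gsn is also abundant in oligodendrocytes. Of 12 genes of heparan sulfate synthesis, the pathway of Hs3st4, 6 were lower and 6 higher, with a median of 0.00.

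Several lists of glial and interneuron markers had negative median differences between the groups, as Ctgf and Cplx3 had, with no gene called. Of 9 astrocyte markers all 9 were lower on average, with a median of -0.46, and none passed the adjusted threshold in limma. Their mean level, as log2, ran from 3.89 to 4.16 on the control arrays and from 3.39 to 3.67 on the cKO arrays. As above, the brightest genes of a list weigh most in such a mean level. Of 9 microglia markers all 9 were lower (median -0.58), with mean levels of 1.68 to 1.76 and 0.76 to 1.44. Of 10 oligodendrocyte lineage markers 8 were lower (median -0.18), with overlapping mean levels of 3.82 to 4.18 and 3.64 to 3.84. Mbp, a myelin gene, was higher without overlap at its brightest probe (0.16, adjusted p = 0.83 in limma). Of its dimmer probes, 1 was lower without overlap (-1.24) and the other differed by -0.01, so Mbp has no settled direction. Of 8 interneuron markers all 8 were lower (median -0.18), with mean levels of 3.27 to 3.34 and 2.93 to 3.24.

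For blood vessels, where Ctgf is also made, 11 of 15 endothelial and mural markers were lower (median -0.14), with overlapping mean levels of 0.88 to 1.17 on the control arrays and 0.89 to 1.04 on the cKO arrays. The smooth muscle gene Tagln differed by -0.39 and the pericyte gene Pdgfrb by -0.35, both without overlap (adjusted p = 0.36 and 0.38 in limma). Every marker of these 5 lists was well above background on at least 3 arrays, so none was at 0. The part of these cells in the values of Ctgf and Cplx3 was not tested.

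**Figure D5:**
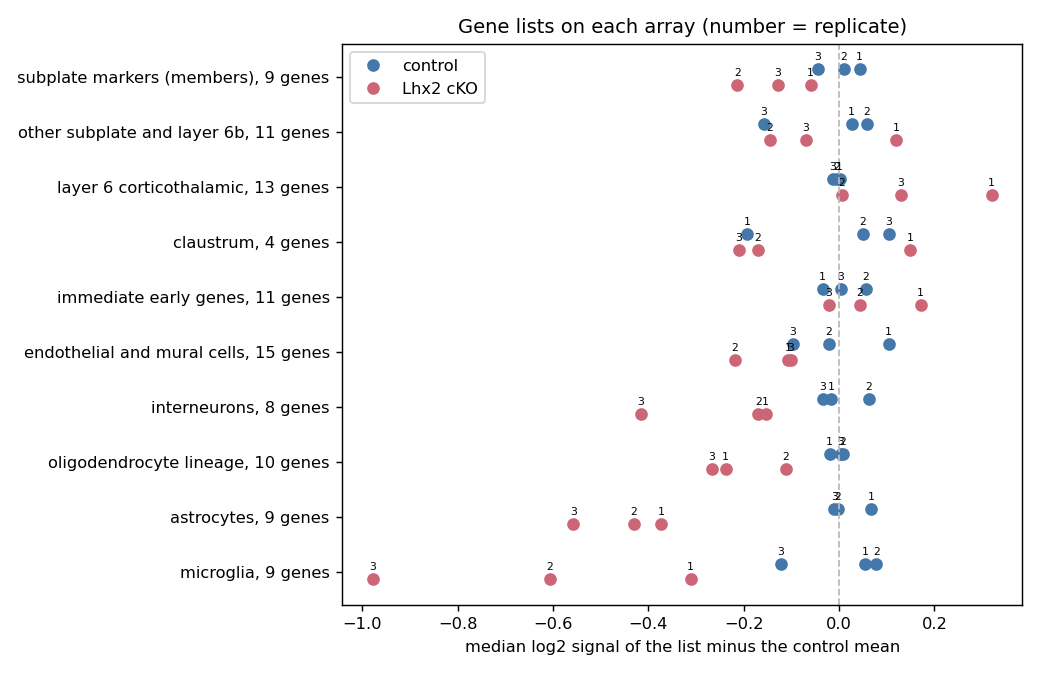
Median log2 level of the subplate markers and of 9 other gene lists on each array, relative to the control mean of each gene; numbers are replicates, and blue and red mark control and cKO arrays. The astrocyte, microglia, oligodendrocyte and interneuron lists have a lower median on all 3 cKO arrays than on any control array. So do, by narrower gaps, the subplate markers (lowest control -0.0448, highest cKO -0.059) and the endothelial and mural list (-0.0967 and -0.101). The layer 6 medians differ little between cKO replicate 2 and the controls.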

How the data were processed

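The authors' deposited scanner files hold spot intensities of 1-colour (Cy3) Agilent mouse arrays, which the Feature Extraction software (version 10.5.1.1) wrote. Per the file headers, they were background-subtracted and detrended but not normalized between arrays. Per the labels, total RNA of dissected S1 was amplified and labelled with Cy3. The series matrix deposited by the authors holds log2 values. How it was made is not stated in those sources, and 96.2% of its values lay within 0.01 of quantile-normalized, median-centred log2 processed signals (r = 0.999, column medians -0.0064 to 0.0064). Its scale and centring were inferred in this way, and it served as an alternative.

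Control and outlier spots (112 to 198 outliers per array) were left out and the spots of 1 probe averaged. The array's 75th percentile of these averages was subtracted on the log2 scale. Over all single spots that were not controls, the 75th percentile was 892 to 1067 intensity units. Probes well above background on at least 3 of 6 arrays were tested, and each gene took its brightest probe. The groups were compared with limma 3.58.1 in R 4.3.3 (lmFit, eBayes, two-sided, Benjamini-Hochberg over all 32697 genes or 50030 probes), tested on simulated data. No other p was adjusted over a list. Gene names were matched to a RefSeq table (GRCm38.p6, used for names alone): 28331 probes by accession, 428 by another accession, 2034 by symbol and 162 by an older symbol. The other 24726 were named as in the scanner files.

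All members were named. Other lists had up to 3 genes with the smallest p named, beside relatives of the members and the 5 genes most alike (those with an SD of at least 0.2). Any further gene named was picked with its values known. The members and lists were chosen with earlier results of these data known. Same-numbered arrays deviated from their group means with r of -0.201, 0.0831 and 0.172, and arrays of unlike number with r from -0.272 to 0.241. These values gave no sign that the numbers pair the samples, but with 3 arrays per group they cannot exclude it. The alternatives covered normalization, background, filters, probe choice, variances, weights, slide position, Y-linked signal, a replicate block and each array left out.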

Additional observations from a re-analysis of the deposited data

How the results depend on the processing

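No alternative moved the direction of Ctgf, Cplx3, Moxd1, Tmem163 or Svil in the fits over all arrays or without 1 array. Of 309 member values under alternatives, 22 changed sign and 1 was called, that of Cplx3 with array weights, the 1 setting in which a member was called. The number of genes called, 3 as reported, was 12 with quantile normalization, 24 with median scaling, 89 with normexp, 73 with normexp and quantile normalization, 13 with the filter on all 6 arrays, 110 with an intensity trend and robust variances, 453 with array weights, 12 in the authors' matrix, 15 with a term for slide row (added after seeing the data), 1 with a term for Y-linked signal, and 0 with no filter, with slide position as a term or with the replicate block, and 0 to 4 with an array left out. Of the calls, 3 were higher and 0 lower as reported, against 8 and 4 with quantile normalization, 14 and 10 with median scaling, 42 and 47 with normexp, 40 and 33 with normexp and quantile normalization, 55 and 55 with the trend and robust variances, and 166 and 287 with array weights. The replicate block, with numbers not known to pair the samples, changed no member's call. The median difference of the members, -0.17 as reported, was -0.0546 with the mean of a gene's probes and -0.238 to -0.0986 with an array left out. With the slide row term it was -0.059, the same comparison as within the slide row of both groups. It was -0.348 within slide position 1 and -0.174 within slide position 2. Within slide position 2, with 1 array per group, no test and not among the 22, Svil (0.181), Moxd1 (-0.174) and Inpp4b (-0.0209) changed sign, as did Nxph4 within position 1 (0.00724). Inpp4b also did so with the mean of its probes (-0.0542). Nxph4 did so with array weights (0.000812), the Y-linked term (0.086) and the slide row term (0.139), and ranged from -0.108 to 0.0772 with an array left out, and Hs3st4 from -0.108 to 0.0173. The slide row term turned Nr4a2 to 1.27 and its dimmer probe to 1.22, the dimmer Svil probe to -0.0205 and the dimmer Hs3st4 probe to 0.0132. The dimmer Nxph4 probe was -0.00349 in the authors' matrix and -0.0202 with slide position as a term. With an array left out it ranged from -0.0975 to 0.148, the dimmer Tmem163 probe from -0.00624 to 0.123 and the dimmer Svil probe from -0.0355 to 0.114. The cause of these changes was not tested. A slide or scan block could not be fitted, since all arrays shared 1 slide and 1 scan.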

Other observations

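Markers of tissue next to S1 stood apart on single arrays. The median of 8 striatal markers relative to the control mean was -0.326 and -0.248 on control replicates 1 and 2 and 0.593 on control replicate 3, while the cKO arrays lay between -0.517 and -0.0876. The median of 7 meningeal markers was -1.15 on cKO replicate 2 and between -0.274 and 0.227 on the other 5 arrays. Ctgf, which meningeal cells also make, had its lowest level, 1.35, on cKO replicate 2, and it was also below every control array on cKO replicate 3, at 1.64, where the meningeal median was 0.221. The part of meningeal tissue in the Ctgf values was not tested.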
